A study of Mus musculus with 12 samples.

Results

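Keratinocytes of MT-HGF mice were compared with wild-type keratinocytes of the same strain, gene by gene. The 3 MT-HGF control arrays and the 3 wild-type control arrays, 6 of the 12 arrays of the study, were taken by their labels, and the difference of the group means was formed for each of 15868 genes with a single symbol that passed a filter on low values. Both groups were primary mouse keratinocytes in culture from FVB/N animals. In MT-HGF mice a metallothionein promoter, which is active in many tissues, drives hepatocyte growth factor (HGF). A further 3 arrays came from wild-type keratinocytes that had received v-rasHa, the activated Ras gene of a mouse sarcoma virus (RAS cells), and served as another reference. The last 3 arrays came from mock-transduced MT-HGF keratinocytes kept for 24 h with AG1478, an inhibitor of the EGF receptor kinase, in 8% serum. Extraction and labelling of those last arrays are described in other words than for the rest, so their values are given only as levels. Growth in regular medium without starvation is given for the wild-type, RAS and MT-HGF controls alike. A note on a RAS transduction of 3 days stands on the labels of all 9 of these arrays, and whether the wild-type and MT-HGF controls went through a mock transduction is not stated there. The labels call the arrays biological replicates but do not say that they came from separate animals or cultures. The p-values therefore weigh differences against array-to-array spread within a group, and that spread may be technical.

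HGF is a secreted growth factor that is cut into an active form outside the cell and binds MET, a receptor tyrosine kinase present on epithelial cells and melanocytes. In skin, the EGF receptor and its ligands set much of the growth of the basal layer. Keratinocytes that leave that layer switch on the keratins Krt1 and Krt10, then assemble a cornified envelope of cross-linked proteins and lipids. The title of the series names enhanced MET signalling, EGFR activation and squamous carcinogenesis. The comparison asks which genes differ between MT-HGF and wild-type control cells.

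One set of regulatory sequences is shown first, because a list of endoplasmic reticulum (ER) folding genes described further on rose almost as a whole. The ER stress response element, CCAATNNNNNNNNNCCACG, is bound by the transcription factors of the unfolded protein response. It was searched on both strands in RefSeq promoter windows of build GRCm38.p6, each from 250 bases before to 50 bases after a gene's start. It was found for 10 of the 26 genes of the list that matched a window (38.5%), and for 0.137% of all 27025 genes with a window. Textbook targets of this element are part of that list, and a match describes letters only. The stretches below lie upstream of the start and run 5′ to 3′ on the strand of the gene, with the element, or its reverse complement, in capitals.
Hspa5 (chr2:34771995-34772073, + strand): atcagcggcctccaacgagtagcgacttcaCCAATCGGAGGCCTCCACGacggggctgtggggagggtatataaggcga
Pdia6 (chr12:17266461-17266539, + strand): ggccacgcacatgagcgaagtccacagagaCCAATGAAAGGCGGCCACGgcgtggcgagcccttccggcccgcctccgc
Dnajc3 (chr14:118937797-118937875, + strand): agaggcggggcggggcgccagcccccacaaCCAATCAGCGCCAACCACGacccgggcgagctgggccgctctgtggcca
Creld2 (chr15:88819490-88819568, + strand): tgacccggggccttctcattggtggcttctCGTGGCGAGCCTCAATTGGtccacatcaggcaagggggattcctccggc
Derl3 (chr10:75893212-75893290, + strand): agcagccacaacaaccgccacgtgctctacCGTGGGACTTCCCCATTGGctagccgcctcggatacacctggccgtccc
Hsp90b1, upstream match (chr10:86705608-86705686, - strand): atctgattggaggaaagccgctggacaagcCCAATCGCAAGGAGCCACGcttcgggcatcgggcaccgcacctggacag
Hsp90b1, downstream match (chr10:86705503-86705581, - strand): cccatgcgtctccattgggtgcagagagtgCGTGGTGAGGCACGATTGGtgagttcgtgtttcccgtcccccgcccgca
Counted from the gene's start, the element spans bases -65 to -47 in Hspa5 and -156 to -138 in Derl3. The other members with a match were Calr, Canx, Ero1b and Syvn1.

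The transgene's product came first as a check of the labels. Hgf read 4.85, 4.96 and 4.93 log2 units on the wild-type arrays and 10.59, 10.72 and 10.73 on the MT-HGF arrays. The wild-type values were below the array background, so the rise is a lower bound of 3.75 log2 units, at least 13.4-fold (limma adjusted p = 3.45e-16 for the fitted difference of 5.76 ± 0.095 SE). RAS cells lay at 4.90, 5.36 and 5.22, also below background. Here the background of an array is its own 95th percentile of 161 chemosensory receptor genes, 6.82 to 7.05 over the 6 arrays. Each bound is the higher group's mean minus the average of that percentile on the arrays of the lower group. The 161 are the receptor genes that passed the filter on low values, so this background is a high one. All 1256 receptor clusters gave 6.10 to 6.28. Genes said not to be above background can exceed that lower value, as did Egf, Hpn and Hgfac on 1 or more arrays. Some genes named below cleared background on only some arrays of their lower group, which makes their folds less certain: 1 of 3 wild-type arrays for Lce3e, Prss22 and Acss2, 2 of 3 for Fos, Krt75, Sprr2j-ps, Il1f8, Il24, S100a9, S100a7a, Hpgd, Trpv3 and Cdkn2c, and 1 of 3 MT-HGF arrays for Lox, Hoxc13, Adam19, Cers4 and Il18. The array does not tell transgene from endogenous transcript.

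Of the 15868 genes 6496 (40.9%) passed the test: 2707 (17.1%) were called higher in MT-HGF cells and 3789 (23.9%) lower, at an adjusted p under 0.05 in limma. These 2 shares are the background for each count of list members called higher or lower in MT-HGF than in wild-type cells. The changes were mostly small: the median called rise was 0.46 and the median called fall was -0.36 log2 units, where 1 unit is a 2-fold change. At least 2-fold were 491 called rises (3.09% of all genes) and 189 called falls (1.19%). At 4-fold or more the counts were 120 and 23. The 2 groups did not overlap in 6323 of the 6496 called genes. Among all genes tested 50.4% had no overlap (20.8% with MT-HGF higher and 29.6% with it lower), which is the background for each such statement below. Neither group was above background on any array for 4352 genes, and these are given no differences.

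**Figure D1:**
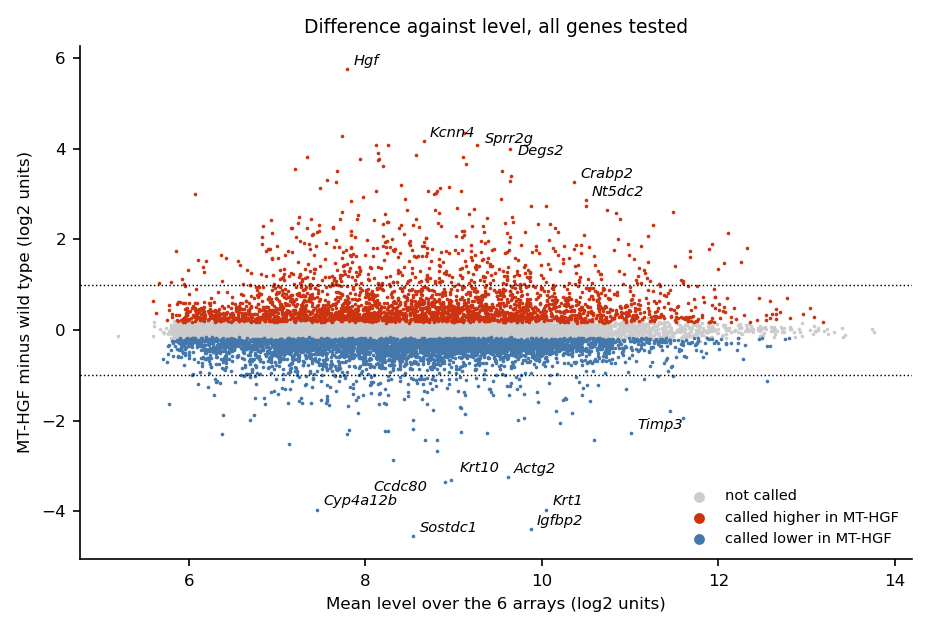
Difference between MT-HGF and wild-type keratinocytes (log2 units) against the mean level over the 6 arrays (log2 units), 1 point per gene tested, with called genes in colour and dotted lines at 2-fold; fitted differences are drawn also where a group was below background, as for Hgf. More genes were called lower (3789) than higher (2707), but 491 rises and 189 falls reached 2-fold.

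With 3 arrays per group, precision is limited by their number. Array medians over the 12 arrays were 6.773 to 6.843, and no array stood apart from its group (mean correlation within a group of 0.9926 to 0.9974). The 12 keratinocyte markers measured, such as Krt5, Krt14 and Trp63, were above background on every wild-type array, and all but Krt15 on every MT-HGF array. Itga6 rose, and Col17a1 (-0.18) and Dsp (-0.19) were called lower, 1 of them in place of 2 without wild-type replicate 2 or 3 or MT-HGF replicate 1 or 3. The median difference of the 12 was -0.09. Their mean level was 11.74 to 11.75 in wild type and 11.70 to 11.74 in MT-HGF cells. Krt14 was 13.01 ± 0.048 and 12.88 ± 0.028 (SD, n = 3), and did not pass the test. Of 12 leukocyte markers 7, with Ptprc and Csf1r among them, were not above background on any of the 6 arrays, and of 10 endothelial markers 8 were not. The summed linear level of the leukocyte markers was 1606 to 1673 in wild type and 1976 to 2093 in MT-HGF cells. Of these 12 markers 4 were called lower and 1 higher (median -0.15): Cd68, a lysosomal protein best known from macrophages, rose by 1.28 log2 units, and Lyz2 (by at least 1.67-fold), Fcer1g, Tyrobp and Itgam were lower, the last not above background in either group. Both fibroblast and melanocyte markers were present, and their values stand beside the results they move with. In such bulk samples, fewer cells of a type and less RNA per cell cannot be told apart.

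Among genes above background on all 6 arrays, the largest rises were led by genes of the outer epidermis. Sprr2g, a small proline-rich protein that is cross-linked into the cornified envelope, read 7.22, 7.29 and 7.14 in wild type and 11.04, 11.37 and 11.51 in MT-HGF cells, a 17.1-fold rise (4.09 ± 0.096 log2 units, SE; limma adjusted p = 1.41e-14). Degs2, which makes the phytosphingosine-type ceramides of the barrier, went from 7.60, 7.59 and 7.72 to 11.52, 11.64 and 11.73, a 16-fold rise. Crabp2, the cellular carrier of retinoic acid, read 8.68, 8.65 and 8.87 against 12.00, 12.02 and 11.97, a 9.62-fold rise. None of these 3 genes had overlapping arrays. The other genes of the first 15 were Sprr2e (12.7-fold), the kallikrein Klk9 (11.4-fold), the neutrophil chemokine Ppbp (10.6-fold), the epoxide hydrolase Ephx3 (9.79-fold), the membrane mucin podoplanin Pdpn (8.81-fold), the serine protease Prss27 (8.43-fold), S100a8 and Tnfaip2 (8.37-fold each), Tmprss11f (8.09-fold), Sncg (7.42-fold), Nt5dc2 (7.34-fold) and Sprr2d (6.67-fold).

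Some rises started from below background and are lower bounds, whose order is not settled. The highest bound was that of Kcnn4, a calcium-gated potassium channel (at least 14.1-fold), just above that of Hgf. Below Hgf came the beta-defensin Defb14 (at least 10.4-fold), the keratin Krt23 (at least 9.39-fold) and the protease Tmprss11e (at least 8.95-fold). Psca (at least 8.66-fold), Il1f6, the gene of an epidermal cytokine of the interleukin 1 superfamily (at least 8.55-fold), and Sprr2f (at least 8.48-fold) were next. Kcnn4 read 6.74, 6.46 and 6.54 in wild type and 10.89, 10.75 and 10.59 in MT-HGF cells. All wild-type values of these genes lay at or below their array's background and all MT-HGF values above it.

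Falls of at least 2-fold were fewer than such rises (189 against 491). Among genes above background on all 6 arrays, the largest fall was that of Igfbp2, a secreted binder of insulin-like growth factors. It read 12.02, 12.06 and 12.12 in wild type and 7.64, 7.63 and 7.76 in MT-HGF cells. This is a 21-fold fall (difference -4.39 ± 0.084 log2 units, SE, limma adjusted p = 1.97e-15). The suprabasal keratin pair followed. Krt1 read 12.03, 12.01 and 12.04 in wild type and 7.93, 8.04 and 8.23 in MT-HGF cells, a 15.5-fold fall (limma adjusted p = 4.62e-13). Its partner Krt10 read 10.42, 10.71 and 10.76 against 7.39, 7.22 and 7.34, a 9.93-fold fall. The matrix protein Ccdc80 fell 10.3-fold and the smooth-muscle actin Actg2 fell 9.51-fold, from 11.10, 11.30 and 11.32 to 7.90, 8.02 and 8.04. No array of either group overlapped with the other in these 5 genes. The rest of the first 15 were the growth factor Tgfb3 (6.37-fold), the proteoglycan-cutting protease Adamts1 (5.4-fold), the myosin light chain Myl9 (5.4-fold), the stress-induced growth inhibitor Gadd45g (5.35-fold), Lrrc17 (4.81-fold), the metalloprotease inhibitor Timp3 (4.81-fold), the matricellular protein Ccn4 (4.76-fold), the collagen receptor subunit Itga11 (4.68-fold), Pakap (4.67-fold) and Prss23 (4.56-fold).

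Falls that ended below background are bounds as well. Sostdc1, which encodes a secreted inhibitor of BMP and Wnt signals, read 10.30, 11.07 and 11.06 in wild type and 6.39, 6.25 and 6.18 in MT-HGF cells, so it fell by at least 14.6-fold. Cyp4a12b, a fatty acid hydroxylase of the cytochrome P450 family with close paralogs, fell by at least 5.61-fold, the growth factor Pdgfc by at least 3.97-fold and the cation channel Trpc1 by at least 2.76-fold. Smaller bounds held for Fat4 (2.66-fold), Vcan (2.64-fold), Adamts5 (2.72-fold) and Fgf2 (2.59-fold).

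**Figure D2:**
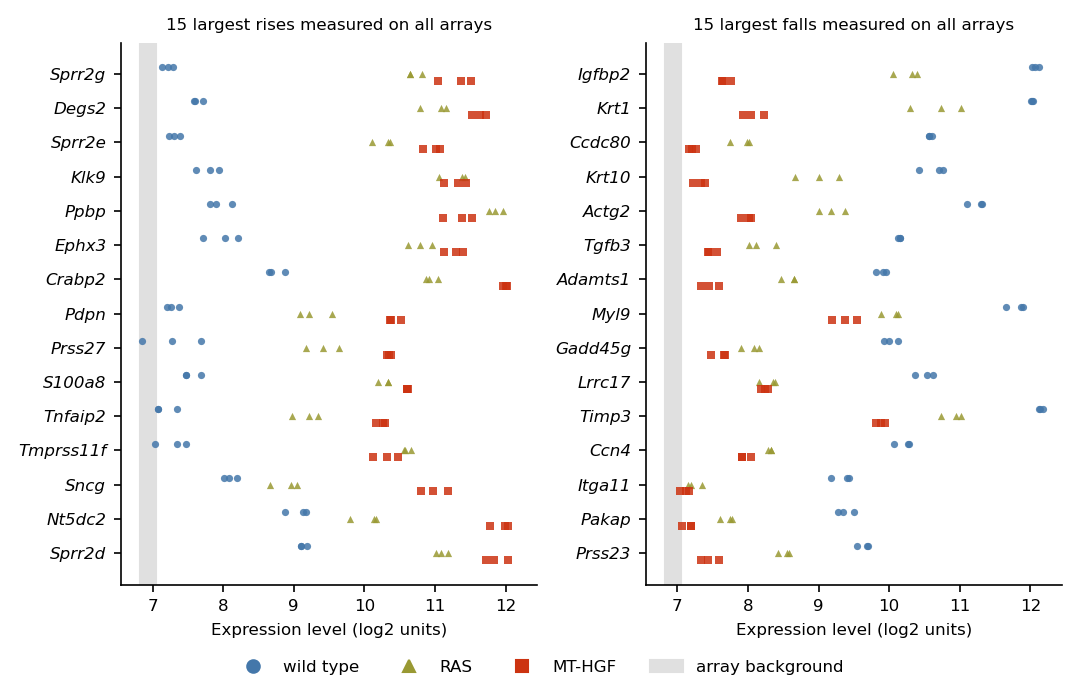
Expression level (log2 units) of the 15 largest rises and the 15 largest falls among genes above background on all 6 arrays, with 1 symbol per array for wild type (circles), RAS (triangles) and MT-HGF (squares) and array background in grey. In each gene the wild-type and MT-HGF arrays were apart; Igfbp2 fell from 12.07 to 7.68 on average, with RAS at 10.26.

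The receptor of the transgene changed little. Met read 9.59 on each wild-type array and 9.87, 9.92 and 10.02 on the MT-HGF arrays, a 1.28-fold rise (limma adjusted p = 0.00236). Of 26 measured genes of the HGF and MET pathway 10 rose and 6 fell, where 17.1% of all genes were called higher and 23.9% lower. Their median difference was 0.02 log2 units, and the median over all genes was -0.03. On the side of the ligand, the related pair rose: Mst1, the ligand macrophage stimulating protein, 1.57-fold and its receptor Mst1r 1.62-fold. Among activators and inhibitors of the HGF cut, the urokinase gene Plau rose 2.68-fold, and Plat and the inhibitor Spint1 rose by 0.25 and 0.32 log2 units. Spint2 (0.25), the protease gene St14 (-0.02) and the proteases Hpn and Hgfac, both not above background, did not pass the test. Cd44, a coreceptor, rose by 0.55.

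Downstream of the receptor, members moved in both directions. The falls in the pathway, 6 of 26, lay near the 23.9% of all genes called lower. Cbl, the ubiquitin ligase that sends MET and EGFR to degradation, read lower by 0.66 log2 units (10.12 ± 0.024 to 9.46 ± 0.022, SD, n = 3; limma adjusted p = 1.17e-07). The docking protein Gab1 fell by 0.54, the PI3-kinase subunit Pik3r1 by 0.60 and Crkl by 0.25. The phosphatases Ptpn11 and Ptprj fell by 0.18 each, while the phosphatase Ptpn1 and the Ras GTPase activator Rasa1 rose by 0.60 and 0.49. Grb2 (0.00), Shc1 (0.13), Sos1 (-0.24), Crk (-0.12), Stat3 (-0.09) and the semaphorin receptor Plxnb1 (-0.11) did not pass the test. The 3 smallest falls are the less certain ones: without wild-type replicate 2, or without wild-type replicate 3, 3 members of the pathway were called lower in place of 6.

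The ligands of the EGF receptor family moved far more than its receptors. Of 8 measured ligands 7 rose (median difference 1.03 log2 units), and none fell. The list held 11 names, of which amphiregulin, Areg, and the neuregulins Nrg3 and Nrg4 had no value among the genes tested. Tgfa, transforming growth factor alpha, read 8.15, 8.16 and 8.22 in wild type and 10.46, 10.48 and 10.52 in MT-HGF cells, a 4.95-fold rise (limma adjusted p = 4.62e-13). Hbegf, the heparin-binding ligand, read 8.98, 9.05 and 9.04 against 11.29, 11.35 and 11.18, a 4.75-fold rise. Epiregulin, Ereg, read 8.25, 8.27 and 8.06 against 9.84, 9.96 and 9.92, a 3.27-fold rise. In each of the 3 the groups were apart by more than 1 log2 unit. Betacellulin, Btc, rose from below background by at least 1.99-fold. The neuregulin Nrg1, a ligand of Erbb3 and Erbb4, rose 1.85-fold, and Nrg2 and epigen, Epgn, rose by 0.28 and 0.25. The Egf gene itself was not above background in either group.

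The receptor Egfr fell from 10.58, 10.61 and 10.60 to 10.24, 10.15 and 10.18, a difference of -0.40 log2 units (limma adjusted p = 0.000264). Erbb3, whose own kinase is nearly inactive, rose by 0.57, Erbb2, the partner without a ligand, by 0.19, and Erbb4 was not above background. Of the 18 receptors and regulators 9 rose and 3 fell (median 0.17). Negative regulators were among both. Lrig1 rose 1.94-fold, Errfi1, an inhibitor of the EGFR kinase, by 0.68, Cblb by 0.45, Sh3kbp1 by 0.26 and Socs5 by 0.23, and Lrig3 fell by 0.86. The adaptor Grb7 rose 2.07-fold, Eps8 rose by 0.61, and Grb14 fell by at least 0.56. Cblc (0.14), Socs4 (0.02), Lrig2 (-0.11), Rnf41 (-0.09) and Eps15 (0.16) did not pass the test.

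**Figure D3:**
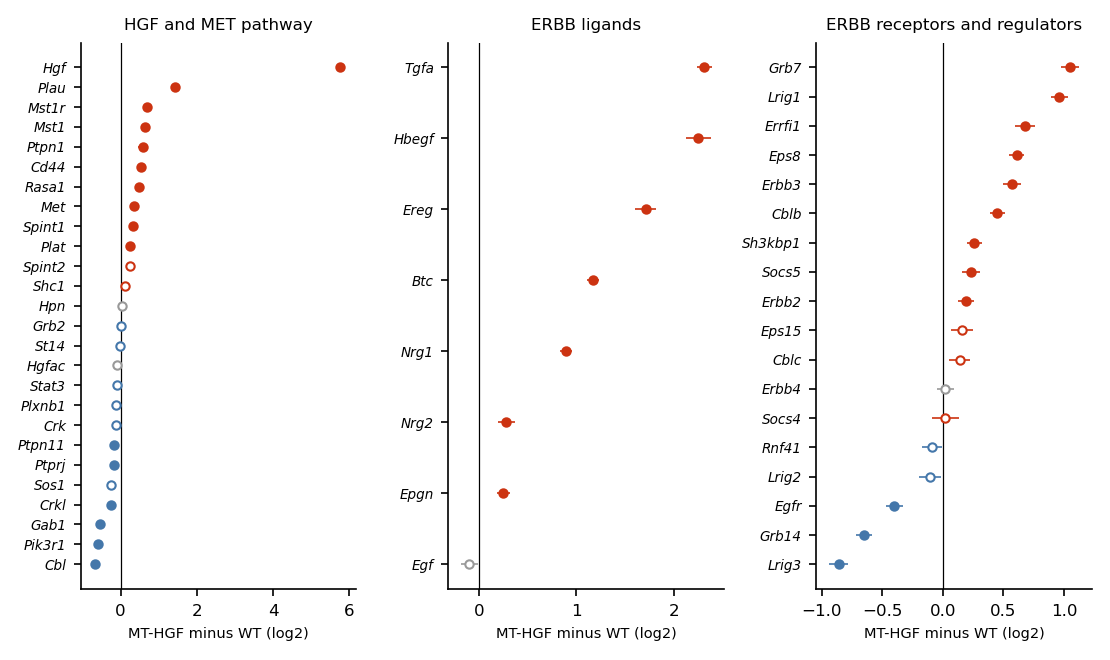
MT-HGF minus wild type (log2 units, bars are SE) for every measured gene of 3 lists: HGF and MET pathway, ERBB ligands, and ERBB receptors and regulators. Filled points passed the test and grey points are not above background in either group; 7 of 8 ligands rose, while Egfr lay at -0.40 and Met at 0.35.

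Genes that free or hold these ligands split evenly, 6 rising and 6 falling of 18 (median 0.11 log2 units). The sheddase Adam17 rose by 0.61, Adam8 by 0.66 and Adam10 by 0.46. The inhibitor Timp3, which blocks Adam17, fell 4.81-fold from 12.14, 12.12 and 12.18 to 9.82, 9.89 and 9.94, and Timp1 fell 2.46-fold. Adam15 and Adam19 fell by 0.69 and 0.64.

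Genes induced by ERK, the kinase below both receptors, mostly rose, and feedback genes were mixed. Of 24 immediate early and ETS genes 15 rose and 3 fell (median 0.41). Fos rose 3.18-fold, Phlda1 2.7-fold, Egr3 2.66-fold and Egr2 by 1.18 log2 units, whereas Myc, Jun and Klf6 fell by 0.59, 0.42 and 0.41. Of 18 feedback genes 8 rose and 4 fell (median 0.12). The nuclear ERK phosphatase Dusp5 read 8.48, 8.59 and 8.72 against 10.15, 10.21 and 10.21, a 3.02-fold rise, and Dusp4 and Dusp6 rose 2.25-fold and 1.82-fold. Dusp10, which acts on p38 and JNK, fell 2.2-fold from 11.01, 10.98 and 10.97 to 9.84, 9.73 and 9.99. Dusp8 fell by 1.17 and Spry4, an inhibitor of receptor signalling, by 0.47.

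Differentiation genes did not move as 1 programme. The spinous keratins fell (Krt1 and Krt10, above), yet 7 of 12 spinous genes rose, among them Sbsn (1.15 log2 units), Dsg1b (0.74), Lypd3 (0.71) and Notch3 (0.69). Cornified envelope and granular genes rose almost throughout, 33 of 35 with none lower (median 1.19). Lce3e, a late cornified envelope protein, read 6.81, 6.66 and 7.37 in wild type and 10.94, 11.38 and 11.57 in MT-HGF cells, 20.4-fold higher. Lce3f rose by at least 7.7-fold and Lce3c 6.08-fold. Loricrin, Lor, was 8.63 ± 0.12 and 10.13 ± 0.34 (SD, n = 3), involucrin, Ivl, rose by 0.74, and the transglutaminase Tgm3 by 1.84. Tgm5 (0.18) and Lce1h (-0.02) did not pass the test. Of 13 small proline-rich genes 12 rose (median 2.13), and Sprr2b (0.09) was not called. Near-identical copies within the Lce1, Lce3 and Sprr2 groups can share probe signal, so their members are not independent counts. Sprr2j-ps, called 3.82 higher, is by its name a pseudogene of that group.

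Keratins listed for simple epithelia rose, unlike Krt1 and Krt10. All 6 measured, Krt7, Krt8, Krt18, Krt19, Krt23 and Krt80, were called higher (median 1.29 log2 units). Of these, Krt80 is not limited to simple epithelia. Krt18 read 7.46, 7.29 and 7.39 in wild type and 9.72, 9.59 and 9.78 in MT-HGF cells (4.98-fold), and its partner Krt8 rose 2.59-fold. The list of 6 stress keratins also held Krt75 and Krt79, which are keratins of the hair follicle. These rose, Krt75 3.99-fold and Krt79 by 1.24 log2 units. Of the stress keratins proper, Krt6b rose by 0.36. Krt6a fell by 0.17, a call lost when any 1 of the 6 arrays was left out, and Krt16 (-0.08) and Krt17 (-0.15) did not pass the test. Of 15 basal and hemidesmosome genes 4 rose and 3 fell, where 17.1% of all genes were called higher and 23.9% lower. Their median, -0.03, equals that of all genes tested. Within the list, the integrin subunits Itga3 and Itga6, which bind laminin, rose by 0.97 and 0.69 and the laminin chain Lamb3 by 0.57. The linkers Dst and Plec were lower (-0.79 and -0.70).

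Enzymes of the barrier and of desquamation rose as broadly. Of 21 genes of barrier lipid metabolism 18 rose and 1, Cers4, fell (median 1.12). Besides Degs2 these were the lipoxygenase Alox12b (6.4-fold), the ceramidase Acer1 (6.24-fold) and the acylceramide enzyme Pnpla1 (5.08-fold). Of 23 epidermal serine proteases and inhibitors 22 rose (median 1.31), with St14 (-0.02) as the exception. Prss22 read 14.5-fold higher. Klk7 and Klk5, the kallikreins that cut corneodesmosomes, rose by 1.79 and 1.31, and their inhibitor Spink5 rose by 1.26. Clade B serpins were mixed, with 5 higher and 3 lower of 9 (median 0.22): Serpinb11 rose by at least 5.18-fold, and Serpinb10 fell by 1.42.

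Of 22 transcription factors of epidermal differentiation 14 rose and 4 fell (median 0.29), the falls numbering 2 without wild-type replicate 2 or MT-HGF replicate 1. Prdm1, the transcriptional repressor Blimp1, rose 4.89-fold, Elf3, an ETS factor of epithelia, by at least 4.01-fold, Hopx 4.54-fold and Ehf by 1.72. Pou2f3 fell by at least 0.85 and Pou3f1 by 0.65. In junctions, 10 of 15 tight junction genes rose (median 0.28), and 1 fall was lost without wild-type replicate 1 or MT-HGF replicate 2. Risen were Cldn3 (3.11-fold), Cldn7 (3.1-fold), Cgn (0.77) and Ocln (0.69). The desmosome changed less, with 1 rise and 4 falls of 10 (median -0.12), 2 falls without wild-type replicate 3. That rise was Dsc2, a desmosomal cadherin, at 8.46, 8.46 and 8.61 in wild type and 11.13, 11.25 and 11.34 in MT-HGF cells (6.64-fold).

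Inflammatory signals rose in several families. Of 10 genes of the interleukin 1 superfamily 8 rose (median 1.89 log2 units), and Il18 fell by 0.63. Il1a, an alarm cytokine of keratinocytes, read 9.38, 9.35 and 9.49 in wild type and 12.01, 12.13 and 12.07 in MT-HGF cells (6.32-fold; limma adjusted p = 2.3e-13). Next to Il1f6, its relative Il1f8 rose 9.2-fold and Il1f9 4.96-fold, and the antagonists Il1rn and Il1f5 rose 2.2-fold and 3.59-fold. Of 19 chemokines 7 rose and 3 fell (median 0.06). Those with the largest rises attract neutrophils through Cxcr2: Ppbp, Cxcl5 (at least 4.13-fold), Cxcl3 (at least 2.7-fold) and Cxcl1 (3.35-fold). Ccl2 (0.09) and Cxcl14 (0.06) did not pass the test. Of 25 other cytokines and growth factors 10 rose and 8 fell (median 0.03). Il24 rose 8.01-fold and Clcf1, a ligand of the gp130 family, 3.39-fold, whereas Csf1, which supports macrophages, fell 3.11-fold and Fgf2 fell by at least 2.59-fold.

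Of 19 antimicrobial and alarmin genes 13 rose and none fell (median 0.59), with 1 called lower without wild-type replicate 1 or MT-HGF replicate 3. The rises were led by Defb14, S100a8, S100a9 (2.89) and S100a7a (1.66). In prostaglandin and leukotriene metabolism 10 of 24 rose and 4 fell (median 0.09). The phospholipase Pla2g4e rose 5.15-fold and the prostaglandin E synthase Ptges 2.14-fold, and the breakdown enzyme Hpgd rose by 1.12. Ptgs2, cyclooxygenase 2, rose 1.29-fold. Of 15 genes of the NF-kappaB system 6 rose and 3 fell (median 0.05). The inhibitor Nfkbia rose 1.9-fold and Bcl3 1.92-fold, and the subunits Rela and Nfkb2 fell by 0.25 and 0.67.

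Channels and retinoid enzymes held some of the largest rises. Of 32 ion channels, pumps and carbonic anhydrases 19 rose and 3 fell (median 0.30). All 3 subunits of the epithelial sodium channel rose from below background, Scnn1a by at least 4.3-fold, and Scnn1b and Scnn1g by at least 1.21 and 1.31 log2 units. The heat-gated channel Trpv3 rose 5.42-fold. Stim1, the calcium store sensor, fell by 1.03. Of 21 retinoid genes 10 rose and 4 fell (median 0.11). Next to Crabp2, the retinoic acid synthesis enzymes Aldh1a3 (4.03-fold) and Dhrs9 (at least 5.66-fold) rose, and the receptor Rarg rose by 0.24 while Rara fell by 0.59. Of 21 metalloprotease and plasminogen genes 11 rose and 5 fell (median 0.25). Plau and its receptor Plaur rose 2.68-fold and 2.16-fold, and Mmp10 by at least 2.08-fold, while Adamts1 fell.

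Lipid synthesis rose as a group. Of 22 genes of cholesterol synthesis and uptake 20 rose and none fell (median 1.13 log2 units), from Mvk near the start of the pathway (0.53) to Dhcr7 at its end (1.19). Msmo1, the sterol methyl oxidase, read 9.77, 9.85 and 9.94 in wild type and 11.88, 11.85 and 11.84 in MT-HGF cells (4.02-fold; limma adjusted p = 2.3e-13). Cyp51 rose 3.5-fold, Idi1 3.32-fold and Insig1, which holds the SREBP factors in the ER, 2.91-fold. No array of these 4 genes overlapped between the groups. The factor Srebf2 rose by 0.76, while Insig2 (0.29) and Scap (-0.06) did not pass the test. The sterol regulatory element CACCCCAC, searched on both strands, was in the promoter window of 1 of the 18 matched genes (5.56%), Hmgcs1, and in 3.3% of all genes with a window. Hmgcs1 rose 1.86-fold. Its element spans bases -136 to -129 from the start and is in capitals here.
Hmgcs1 (chr13:119690185-119690252, + strand): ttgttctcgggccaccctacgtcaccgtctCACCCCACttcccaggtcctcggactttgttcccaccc
Of 20 genes of fatty acid synthesis and storage 14 rose and 2 fell (median 0.39). The desaturase Fads2 rose 5.61-fold, Scd1 3.1-fold, Scd2 by 1.62 and the acetate-activating Acss2 2.96-fold. Pnpla3 and Gpam, which act on triglyceride and on its synthesis, fell by 0.85 and 0.44.

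Of 30 genes of the unfolded protein response and ER folding 28 rose and none fell (median 0.60 log2 units). Derl3, a factor of ER-associated degradation, read 7.25, 7.08 and 7.21 in wild type and 8.91, 8.90 and 9.14 in MT-HGF cells (3.5-fold). Creld2 rose 2.52-fold, the disulfide isomerase Pdia6 2.32-fold, Hsp90b1 2.01-fold, the chaperone Hspa5 1.54-fold and Dnajc3 1.52-fold. All 10 genes with the element shown at the outset were called higher, though Ero1b was not above background in either group. Members without a match in the window rose too, among them Pdia4 (0.98) and Hyou1 (0.90). Derl2 (0.21) and Selenos (0.14) did not pass the test. The sensors Ern1, Atf6 and Eif2ak3 rose by 0.40, 0.39 and 0.32.

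Of 27 genes of the ATF4 and amino acid response 17 rose and 2 fell (median 0.31). The cystine transporter Slc7a11 read 8.36, 8.31 and 8.55 against 10.20, 10.44 and 10.45 (3.89-fold), Nupr1 rose 3.66-fold, Cth 2.64-fold and Chac1 2.09-fold. Other well-known targets did not pass the test, such as Asns (0.05) and Trib3 (-0.05). The cytosolic tRNA synthetases, which the same factor can induce, did not follow it, with 1 rise (Cars, 0.54), 2 without wild-type replicate 1 or MT-HGF replicate 3, and 4 falls of 20 (median 0.02). Of 19 glycolysis genes 14 rose and none fell (median 0.34), led by Aldoc (4.38-fold) and the lactate exporter Slc16a3 (4.31-fold). Of 23 hypoxia response genes 14 rose and 3 fell (median 0.30). The prolyl hydroxylase Egln3 rose by at least 6.63-fold, Bnip3 2.69-fold and Ndrg1 and Epas1 by 1.37 and 1.36. Adm, another classic target, fell by 0.47.

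Ribosome assembly moved the other way. Of 29 genes of ribosome biogenesis none rose and 25 fell (median -0.50 log2 units, against 23.9% of all genes called lower). Wdr43, a part of the complex that processes the small subunit's RNA, read 10.94, 10.91 and 10.95 in wild type and 10.21, 10.14 and 10.27 in MT-HGF cells (1.65-fold lower; limma adjusted p = 6.01e-07). Tsr1 read 9.93, 9.65 and 9.63 against 8.98, 8.99 and 9.04. Polr1b, a core subunit of RNA polymerase I, and the processing factor Rrp12 were lower as well (-0.67 and -0.63). No array overlapped in these genes. Npm1 (-0.15), Ncl (-0.20), Nhp2 (-0.05) and Nop10 (-0.18) did not pass the test. The list held 22 to 25 falls and no rise whichever of the 6 arrays was left out. Proteasome and respiratory chain genes moved little: 1 rise and 2 falls of 31 (median -0.03), and 2 rises and 9 falls of 42 (median -0.05). Respiratory chain falls were led by Sdhd (-0.42) and Sdhb (-0.41). Their count was 4 without wild-type replicate 3 and 5 without MT-HGF replicate 1. The respiratory chain rises numbered 1 to 5 on leaving out wild-type replicate 1 or MT-HGF replicates 1 or 3. Proteasome rises numbered 2 without wild-type replicate 3 or MT-HGF replicate 1, and proteasome falls 4 without MT-HGF replicate 3.

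Cell cycle genes rose modestly. Of 49 measured 31 rose and 2 fell (median 0.34), and none reached 2-fold. The mitotic checkpoint kinase Bub1 read 8.56, 8.79 and 8.87 in wild type and 9.62, 9.68 and 9.69 in MT-HGF cells (1.9-fold), and Ttk, Top2a and Kif23 rose by 0.88, 0.87 and 0.81. Mki67 (0.14) and Pcna (0.15) did not pass the test. The falls were Ccnd2 (-0.63) and Cdk6 (-0.41). Of 26 p53 targets and cell cycle inhibitors 4 rose and 14 fell (median -0.23). After Gadd45g, Trp53inp1 fell 2.02-fold, Fas by at least 0.20 and Gadd45b by 0.66, while the inhibitors Cdkn2c and Cdkn1b rose by 0.98 and 0.51.

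Among contractile and matrix genes falls outnumbered rises, where 23.9% of all genes were called lower and 17.1% higher. Of 25 smooth muscle contractile genes 15 fell and 2 rose, of which 1 rise was lost without MT-HGF replicate 1 (median -0.41 log2 units). Next to Actg2 and Myl9, Tagln read 10.76, 10.62 and 10.75 in wild type and 8.71, 8.69 and 8.81 in MT-HGF cells (3.93-fold lower), and Acta2 read 12.21, 12.45 and 12.37 against 10.49, 10.63 and 10.58 (3.43-fold lower). Of 44 extracellular matrix genes 23 fell and 10 rose (median -0.25). The collagen cross-linking enzyme Lox read 9.73, 9.75 and 9.74 in wild type and 6.90, 6.83 and 6.93 in MT-HGF cells, 7.23-fold lower and without overlap. Bgn fell by 1.44. The small proteoglycan Dcn went the other way, from 8.39, 8.59 and 8.67 to 10.32, 10.27 and 10.36 (3.4-fold), and Col18a1 and Ecm1 rose by 1.09 and 0.90.

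Fibroblast markers moved beside these genes, but not in 1 direction. Of 15 measured markers 5 rose (with Dcn and Fbln1 among them) and 7 fell (median -0.03). Lower were Thy1 (-1.16), Pdgfrb (-1.01), Prrx1 (-1.37) and Col1a1 (-0.72). Their summed linear level was 8312 to 8772 on the wild-type arrays and 7131 to 7531 on the MT-HGF arrays. Dpt, Pi16 and Lum were not above background on any of these arrays. The part of fibroblasts in the contractile and matrix results was not tested. Of 21 mesenchymal transition and cadherin genes 11 fell and 6 rose (median -0.32): Vim fell by 0.90, S100a4 fell 2.47-fold and Cdh11 fell by 1.20. The epithelial adhesion protein Epcam rose 4.16-fold, the collagen receptor subunit Itga2 3.94-fold and the chromatin protein Hmga2 3.52-fold. The keratinocyte cadherin Cdh1 (0.03) did not pass the test.

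Genes of growth inhibitory and patterning pathways moved in both directions, and their counts stand beside 23.9% of all genes called lower and 17.1% higher. For TGF-beta 9 of 21 fell and 5 rose (median -0.08): besides Tgfb3, the target Ccn2 fell 3.44-fold and Tgfb2 by at least 0.65, and Tgfb1 rose by 0.48. For BMP and Wnt ligands and targets 11 of 27 fell and 5 rose (median -0.06). Id2, a target of BMP signals, fell 2.8-fold, Id3 and Id1 were lower (-0.87 and -0.79), Wnt3 fell 2.66-fold and Bmp4 2.13-fold, whereas Wnt7a rose 3.43-fold. Among 20 antagonists 5 fell and 3 rose (median -0.05), with Fstl1 2.68-fold lower next to Sostdc1 and Sfrp1 3.37-fold higher. These antagonists lay near the shares of all genes. Of 19 Notch genes 6 fell and 5 rose (median 0.06). Notch1 read 11.83, 11.78 and 11.86 in wild type and 10.92, 10.74 and 10.78 in MT-HGF cells (2.02-fold lower), and its ligand Jag1 fell 2.46-fold. Of 16 genes of the IGF system 6 fell and 4 rose (median -0.04), with Igfbp5 3.55-fold, Irs1 2.02-fold and Igf1 1.73-fold lower, and Igfbp3 2.72-fold and the clearance receptor Igf2r 2.09-fold higher.

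Of 23 hair follicle and sebaceous gland genes 10 fell and 5 rose (median -0.01), where 23.9% of all genes were called lower and 17.1% higher (median -0.03). Hoxc13, a regulator of hair keratins, read 8.94, 8.87 and 8.93 against 6.48, 6.65 and 7.01 (4.6-fold lower), and the stem cell receptor Lgr5 fell by at least 0.73. Of 26 interferon and antigen presentation genes 11 fell and 3 rose (median -0.05), beside the same shares of all genes. The peptide transporter Tap1 fell 1.66-fold and Irf9 and Ifi35 by 0.58 and 0.57, while Irf1 rose by at least 0.40. Another transcript cluster of Irf1, at a mean level of 6.45, differed by -0.02.

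Melanocyte markers were present in both groups and lower in MT-HGF cells. Of 18 markers 16 were above background on every array of both groups. Of these 18, 12 fell, 1 rose (Mc1r, 0.23, a call lost without MT-HGF replicate 3) and the median was -0.31 log2 units. Mlana, a melanosome protein, read 10.23, 10.55 and 10.51 in wild type and 9.56, 9.61 and 9.76 in MT-HGF cells (1.72-fold lower; limma adjusted p = 2.72e-06). Tyrp1, a pigment enzyme, fell by 0.33, Pmel by 0.47, and the factors Mitf and Pax3 were lower (-0.40 and -0.63). The endothelin receptor Ednrb fell by 0.91. Tyr (0.13) and Sox10 (-0.15) did not pass the test. The summed linear level of the markers was 17014 to 18590 in wild type and 13600 to 15216 in MT-HGF cells, with no overlap.

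**Figure D4:**
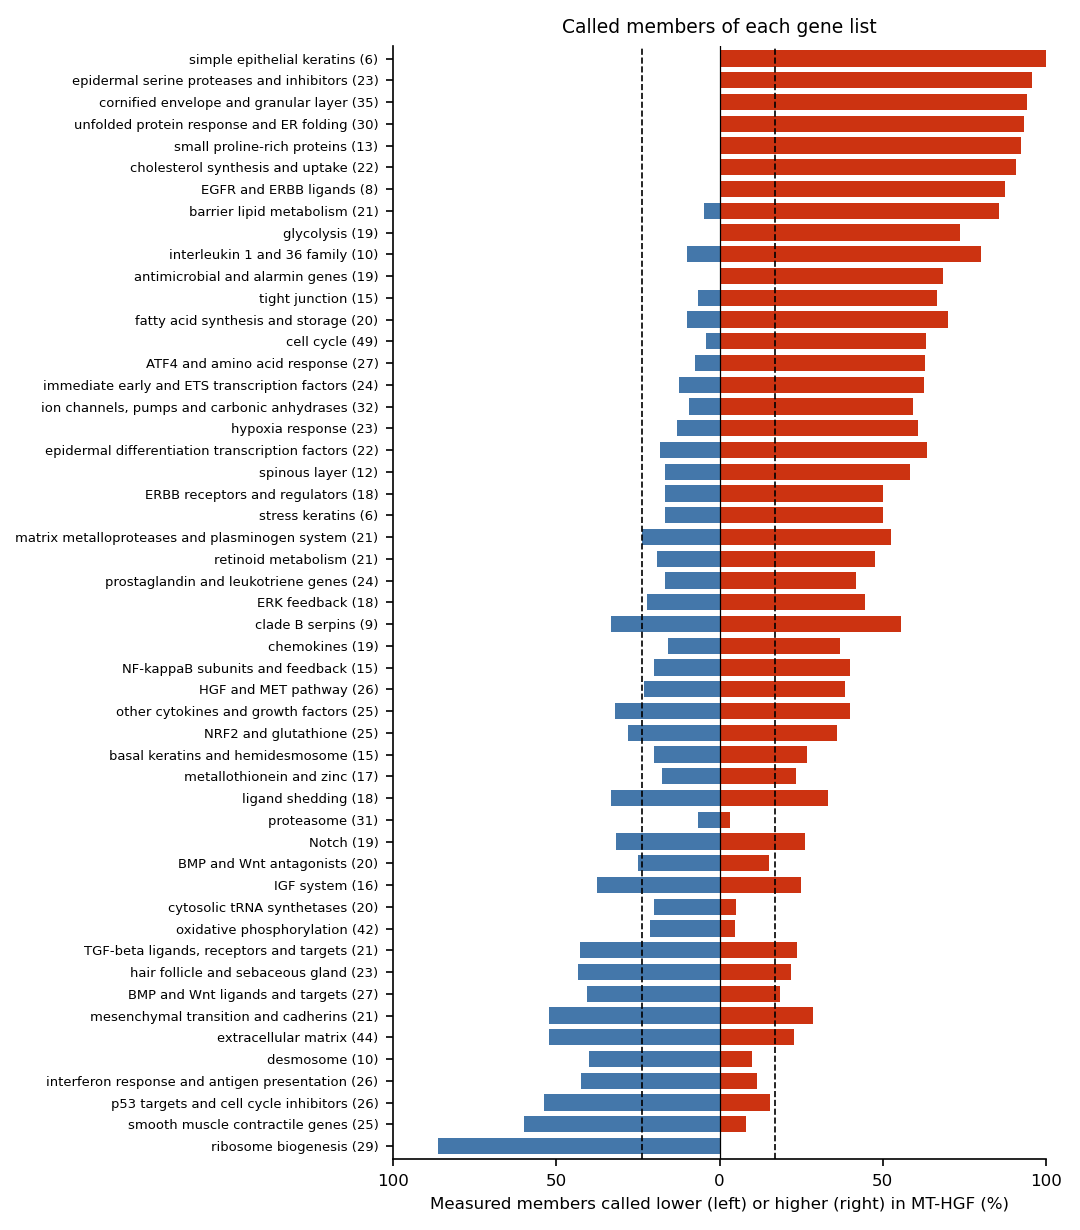
Share of the measured members of each gene list (number in brackets) called higher (right) or lower (left) in MT-HGF cells, in percent, with dashed lines at the 17.1% and 23.9% of all genes tested. The lists of simple epithelial keratins (6 of 6, Krt80 included), serine proteases (22 of 23) and cornified envelope genes (33 of 35) stand at the top. Ribosome biogenesis (25 of 29 lower) stands at the bottom.

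RAS cells were the reference for how far these shifts are shared with, or go beyond, those of another growth signal. The differences of RAS and of MT-HGF cells from wild type share the 3 wild-type arrays and are only set side by side; the direct contrast of MT-HGF with RAS is the test of how they differ. In it, 2129 genes (13.4%) were higher in MT-HGF cells and 2002 (12.6%) lower, at an adjusted p under 0.05. Some lists described above had much the same median in RAS cells against wild type. There 21 of 23 serine proteases and inhibitors were higher and none lower (median 1.34, with 1.31 in MT-HGF cells). Of 21 barrier lipid genes 17 were higher and 2 lower (1.08, with 1.12). Of 25 contractile genes 15 were lower and 1 higher (-0.39, with -0.41). Simple epithelial keratins were higher in 5 of 6, with a smaller median (0.85, with 1.29).

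Among genes called against wild type, a choice that rests on the same MT-HGF arrays, and above background on every array of the 3 groups, those furthest above RAS cells were Sncg (2.09 log2 units), Nt5dc2 (1.90), 2610528A11Rik (1.86), Slc16a3 (1.85), Car12 (1.79) and Cbr2 (1.77). Nt5dc2 read 10.14, 9.79 and 10.16 in RAS cells and 11.99, 12.03 and 11.78 in MT-HGF cells, without overlap (limma adjusted p = 4.34e-09 against RAS). Car12, a carbonic anhydrase at the cell surface, was 8.51 in wild type, 9.68 in MT-HGF and 7.89 in RAS cells on average. Furthest below RAS cells were Krt1 (-2.61), Igfbp2 (-2.58), Lce1i (-1.89), Lce1b (-1.79), Gpsm1 (-1.70) and Krt10 (-1.67). Krt1 read 10.29, 11.02 and 10.73 in RAS cells, between the other 2 groups. Gpsm1, a regulator of G protein signals, was 7.31 in wild type, 8.00 in MT-HGF and 9.69 in RAS cells.

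The direct contrast gave these counts for the gene lists. Of 22 cholesterol genes 18 were higher in MT-HGF than in RAS cells and none lower (median 0.59), of 27 ATF4 genes 21 were higher and 1 lower (0.40), and of 19 glycolysis genes 13 were higher and 2, Hk2 and Pfkfb4, lower (0.33). Hypoxia response genes were higher in 11 of 23, ER folding genes in 16 of 30 and cell cycle genes in 20 of 49, with 2, 1 and 0 lower. Of 29 ribosome biogenesis genes 17 were lower than in RAS cells and none higher (median -0.30). Melanocyte markers were lower in 12 of 18 and higher in 1 (median -0.41), while in RAS cells against wild type 2 were lower and 1 higher (of all genes, 19.9% and 12.6%). Fibroblast markers were higher in 10 of 15 and lower in 2, as were 20 and 7 of the 44 matrix genes. Against wild type, RAS cells had 10 ATF4 genes lower and 7 higher (median -0.10). Fibroblast markers were 8 lower and 1 higher there (median -0.37), and matrix genes 24 lower and 4 higher (median -0.50). Tgfbi, a matrix protein of this kind, was 9.63 in wild type, 9.59 in MT-HGF and 8.32 in RAS cells.

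The cornified envelope list split. Of 35 genes 20 were lower in MT-HGF than in RAS cells and 6 higher (median -0.60), and the Lce1 genes account for much of it: Lce1i read 7.33, 7.19 and 7.41 in wild type, 8.12, 8.55 and 8.82 in MT-HGF and 10.19, 10.37 and 10.58 in RAS cells. Small proline-rich genes were higher in 8 of 13 and lower in 1, Sprr4 (median 0.39). Of 8 ERBB ligands Ereg was higher than in RAS cells (0.44) and Hbegf lower (-0.39), and Tgfa (0.14 ± 0.076 SE, adjusted p = 0.219 in limma) did not pass the test. Of 18 ERK feedback genes 9 were lower than in RAS cells and 1, Spry1, was higher (median -0.23). Dusp10 read 11.23, 11.24 and 11.30 in RAS cells, above both other groups. The metalloproteases Mmp3 (-1.98) and Mmp10 (-1.73) were lower than in RAS cells, and the neutrophil chemokine Cxcl5 (1.91) and the cytokine Il33 (1.45) were higher.

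**Figure D5:**
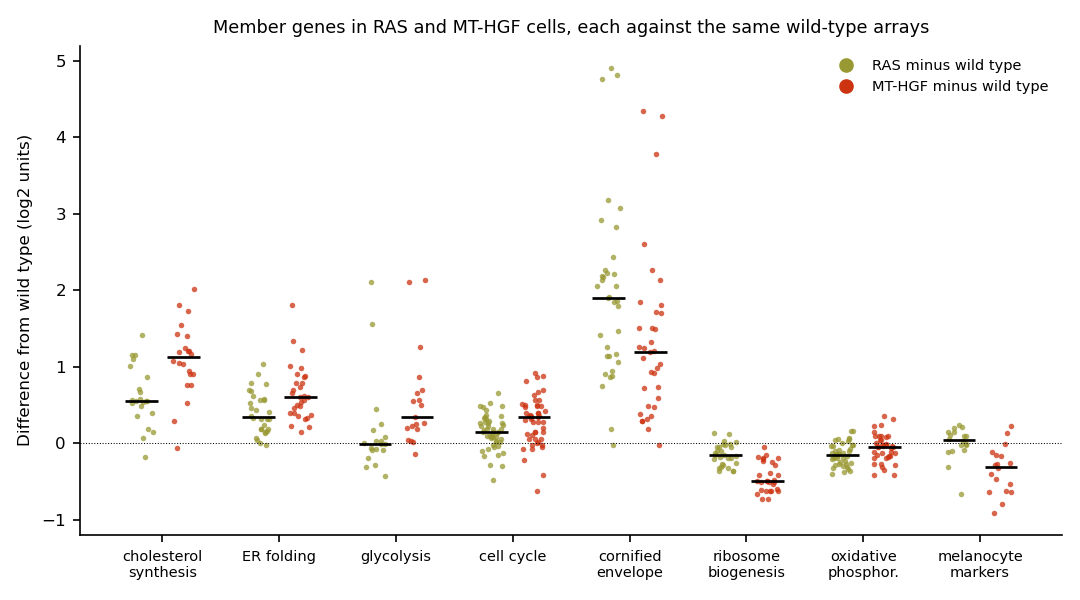
Difference from wild type (log2 units) of each measured gene of 8 lists, for RAS cells (left in each pair) and MT-HGF cells (right), with a bar at the median. Both differences use the same wild-type arrays; the median of the cholesterol list was 0.55 in RAS and 1.13 in MT-HGF cells, and that of ribosome biogenesis was -0.16 and -0.50.

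In the AG1478-treated MT-HGF cells, Hgf was 10.74 on average, and Krt1 read 12.87, 12.91 and 12.75, above its wild-type level of 12.02. Ereg was 8.25 there, against 9.90 in untreated MT-HGF cells and 8.06 to 8.27 in wild type. Igfbp2 was 9.02 and Lox was 6.98. Treatment and the described preparation differ together between these arrays and the others. Serum is stated, at 8%, for the treated arrays only, so whether it differed is not known. Effects of treatment, preparation and any difference in serum cannot be told apart.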

How the data were processed

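Expression was measured on the Affymetrix Mouse Gene 1.0 ST platform. The authors deposited log2 expression values made by RMA (background correction, quantile normalization and probe summary), per the submitters' processing notes. Its version, and whether the 12 arrays were run together, are not given in the sources used here. These values were used unchanged. Of 35511 transcript clusters 21789 had a single gene symbol in the platform annotation. Clusters that exceeded the 30th percentile of an array in 3 or more of the 12 arrays were kept, and of several kept clusters of a gene (815 genes) the one with the highest mean level was used.

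A model of the 4 group means was fitted to the 12 arrays with limma 3.58.1 in R 4.3.3, with default eBayes and 8 residual degrees of freedom, and was tested on simulated data. P-values were two-sided and Benjamini-Hochberg adjusted over all 15868 genes. Named genes were the 15 largest differences in each direction above background, the 8 largest bounds, every receptor pathway member, up to 4 called members per list and direction, and the 6 furthest from RAS each way; further members are named as exceptions, checks or contrasts with RAS after their values were seen. The gene lists and members were chosen with earlier results of these data known. Promoter and miRNA sequences are RefSeq's (GRCm38.p6). Genes without a value in the tested table are not analysed here.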

Additional observations from a re-analysis of the deposited data

How the results depend on the processing

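Over 17 alternative settings (fewer arrays, a replicate block, other filters, centring and normalization, array weights, other eBayes settings, the mean of a gene's clusters, and each of the 6 arrays left out), the counts of called genes stayed within 1.5 times their main value. Without 1 array the number of genes called higher was 2409 to 2600 (main value 2707), called lower 3117 to 3769 (3789), at least 2-fold higher 465 to 519 (491) and at least 2-fold lower 181 to 213 (189). Of 373 named genes under these settings 6219 comparisons kept direction and side of the threshold, 88 lost the call, 16 gained it and 0 reversed. The 26 genes that lost it somewhere had differences of at most 0.37 log2 units, such as Krt6a, Erbb2 and Nrg2. Of 1972 list counts 83 moved by more than 1.5 times, in 26 of 116 pairs of list and direction, 39 of them on leaving out 1 array. Of the 83, 70 moved by 1 or 2 genes, and 13 by 3 or more. Beyond those named in the text, the larger moves were these: with quantile normalization, prostaglandin genes lower 7 in place of 4, proteasome genes lower 5 in place of 2 and keratinocyte markers lower 5 in place of 2; with array weights, whose estimate did not fully converge, proteasome genes lower 8 in place of 2, ion channels lower 7 in place of 3 and BMP and Wnt antagonists lower 8 in place of 5; and respiratory chain genes higher 5 in place of 2 with the block or without MT-HGF replicate 1. The share of rises among called genes was 38.7 to 44% over all settings. Arrays of the same replicate number deviated together in 2 of the 3 pairs (correlations of 0.528, 0.0465 and 0.354). Of the pairs of unlike number, wild-type replicate 2 with MT-HGF replicate 3 gave 0.41, and the others gave -0.499 to 0.00884. The numbers were not taken to pair the samples, but these values do not settle whether arrays of the same number share a batch. With the replicate number as a block 7820 genes were called on the 6 arrays, against 6683 on the same arrays without it. On 9 arrays 7505 were called with the block and 6686 without. The block on 9 arrays was chosen after seeing the data, and both block settings include all 6496 main calls. A wider receptor background (6.10 to 6.28 on the 6 arrays) changed whether a bound applied for 50 named genes. Signals near background limit small changes of weakly expressed genes.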

Other observations

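Genes of microRNAs on the array were looked at after their values were seen. Of 140 tested, 15 were higher and 14 lower in MT-HGF cells (limma adjusted p under 0.05). Both shares are smaller than those of all genes tested, 17.1% called higher and 23.9% lower. Of the 140, 67 were not above background in either group, and 1 rise reached 2-fold. That rise was Mir31, a microRNA gene known to be induced in hyperplastic epidermis. It read 7.91, 7.95 and 7.84 in wild type, 9.18, 9.09 and 9.20 in MT-HGF and 8.47, 8.45 and 8.48 in RAS cells, so the 3 groups were apart (2.39-fold over wild type, limma adjusted p = 2e-10, and 0.69 ± 0.068 log2 units, SE, above RAS). The array reads the transcript of the gene, and the mature forms were not measured. They are shown with the seed, bases 2 to 8, in capitals, from RefSeq on build GRCm38.p6, both on the minus strand.
mmu-miR-31-5p (chr4:88910614-88910635): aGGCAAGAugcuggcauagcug
mmu-miR-31-3p (chr4:88910577-88910599): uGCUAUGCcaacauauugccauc
Mir145a and Mir143, a pair of neighbouring microRNA genes that mark smooth muscle and fibroblasts, moved with the contractile genes: Mir145a read 7.12, 7.62 and 7.23 in wild type and 5.57, 5.35 and 5.43 in MT-HGF cells, at least 1.3-fold lower, and Mir143 was at least 1.36-fold lower.

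Other groups gave smaller or mixed differences. The promoter of the transgene belongs to the metallothionein family, but the endogenous genes moved little: Mt2 rose by 0.25 log2 units, Mt1 (0.10) did not pass the test, and of 17 metallothionein and zinc genes 4 rose, 2 without wild-type replicate 1, and 3 fell (median 0.07), with the zinc exporter Slc30a4 1.84-fold higher. Of 25 NRF2 and glutathione genes 9 rose and 7 fell (median 0.12). Hmox1, a heme-degrading enzyme, rose 2.24-fold yet lay 1.02 log2 units below RAS cells, and Gclc, which starts glutathione synthesis, fell 2.04-fold. The gene 2610528A11Rik was 8.74 in wild type, 8.61 in RAS and 10.47 in MT-HGF cells, and 12.08 in the AG1478-treated MT-HGF cells.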
